A study of Zea mays with 48 samples.

Results

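The plastid gene matK (locus tag ZemaCp003) was followed across maize leaves that carried or lacked the bZIP60 mutation, at 2 growth stages and 4 maximum daily temperatures. It is 1 of 33309 rows of the deposited expression table and 1 of 61 plastid rows. The row was chosen by its locus tag and with its values across the groups already known, so its levels and differences are described here and carry no test. The libraries came from leaves of the bzip60-2 mutant or of the inbred line W22, at stage V5 (5 leaf collars visible, 27 days after germination) or stage V4 (4 leaf collars, 20 days), grown to a daily maximum of 31, 33, 35 or 37 °C. That makes 16 groups of 3 libraries, 48 in all. The mutant is represented by the bzip60-2 allele alone. Leaf lamina was taken from the middle of the newest fully expanded leaf, and polyadenylated RNA was sequenced. The 4 temperatures were run in 8 growth chambers, a pair for each, so a temperature and its pair of chambers cannot be told apart, and neither can a stage and its day of sampling. The extraction protocol speaks of separate plants and the series description of several plants per replicate, so the errors below measure the spread between these libraries.

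matK encodes the intron maturase of land plant plastids, a protein that helps group II introns in plastid precursor RNAs to fold and be cut out. The gene lies inside the intron of trnK, the gene of a lysine transfer RNA, and in tobacco the protein is known to associate with introns of trnK, several other transfer RNA genes, atpF, rpl2 and rps12. Messenger RNA of matK and unspliced trnK precursor both hold the matK sequence, and the values do not separate them. bZIP60 is a transcriptional regulator that acts when unfolded proteins build up in the endoplasmic reticulum, and its active form is made after its messenger RNA is spliced in the cytosol. Plastid transcripts mostly lack stable poly(A) tails, so the values describe the plastid RNA that was kept by selection on oligo(dT). In bulk leaf tissue, fewer plastids or cells and less RNA in each of them cannot be told apart.

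Levels are in FPKM, a density of sequenced fragments scaled to transcript length and to library size, and the number of reads behind them is unknown. They summed to between 869999 and 941520 per library, and between 24520 and 26641 genes were above 0. Of the plastid markers of a leaf, psaA, psaB and psbC averaged 14.5, 13.0 and 1.86 FPKM over all libraries, while psbA never exceeded 0.47 FPKM and was listed at 0 in 39 libraries, and rbcL had group means of at most 0.197 FPKM. psbA is the annotated neighbour of matK on one side, and rps16, the protein gene on the other side, was listed at 0 in 47 libraries, while matK was above 1 FPKM in every library. trnK itself was not analysed here. Libraries also differed in Zm00001d033132, a nuclear gene without a name here that was picked after its values were seen. It was under 2 FPKM in the bzip60-2 V4 libraries at 31 °C and in all W22 V4 libraries except replicate 3 at 37 °C. That replicate had 172 FPKM, and every other library was above 60 FPKM. The library sets below are this split in a single gene, and no label names them. matK had 14.4 FPKM in W22 replicate 3 at V4 and 37 °C, between the other libraries of its group. Only this group holds libraries of both sets, so a model term for the library set rests on that replicate. For matK such a term could therefore hardly move a difference, and it cannot separate the set from temperature, genotype or stage. Medians over the 22794 genes past the filter on low values differed by 0.19 and 0.20 log2 units between bzip60-2 and W22 at V4 and V5, and by 0.30 and 0.29 between V5 and V4 in bzip60-2 and W22, which is the background against which differences between genotypes and stages are to be read. For 37 against 31 °C these medians lay between -0.08 and 0.08. With FPKM divided by size factors (median of ratios) instead, all 8 medians lay between -0.00405 and 0.0248.

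matK was low at 31 °C and higher at 37 °C in all 4 series of genotype and stage, and its levels were lowest in bzip60-2 leaves at V5. In bzip60-2 leaves at V5, the 3 libraries had 1.97, 2.26 and 1.52 FPKM at 31 °C, 1.90, 1.87 and 1.4 at 33 °C, 3.44, 2.36 and 3.44 at 35 °C, and 8.43, 8.63 and 8.20 at 37 °C. In W22 leaves at V5, they had 3.77, 2.98 and 3.22 FPKM at 31 °C, 2.32, 2.14 and 2.49 at 33 °C, 5.31, 5.81 and 5.61 at 35 °C, and 10.8, 14.2 and 10.1 at 37 °C. At this stage the libraries at 37 °C stood above all others of their series, and in neither genotype were those at 33 °C above those at 31 °C. In bzip60-2 leaves at V4, the libraries had 3.37, 3.55 and 2.68 FPKM at 31 °C, 5.92, 5.84 and 6.99 at 33 °C, 9.42, 9.83 and 10.4 at 35 °C, and 13.6, 13.2 and 13.1 at 37 °C. In W22 leaves at V4, they had 4.36, 4.93 and 5.10 FPKM at 31 °C, 5.31, 7.08 and 7.23 at 33 °C, 8.88, 8.16 and 9.75 at 35 °C, and 15.5, 13.6 and 14.4 at 37 °C. At V4 the libraries of each temperature lay wholly above those of the temperature before it in both genotypes. The SD of a group as a percentage of its mean ran between 2.11% in bzip60-2 at V4 and 37 °C and 20.2% in bzip60-2 at V5 and 35 °C.

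**Figure D1:**
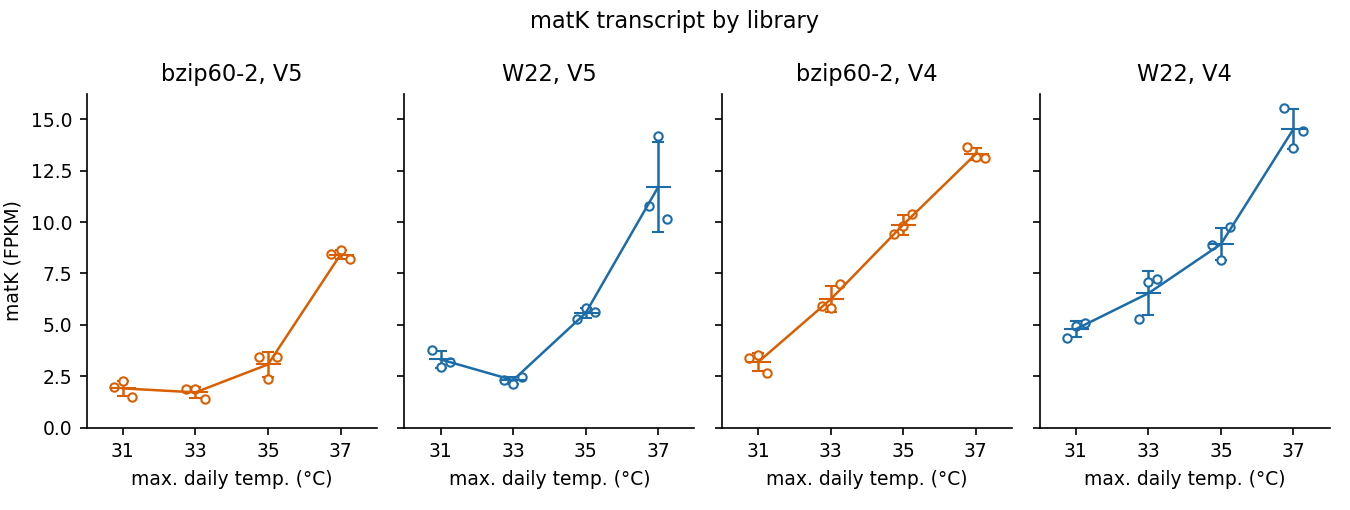
matK in FPKM (vertical axis) by maximum daily temperature (°C, horizontal axis) for each genotype and stage. Open circles are libraries, bars the mean ± SD of 3, and lines join the means. At V4 each temperature stood above the one before it, while at V5 the levels at 33 °C were no higher than those at 31 °C and the libraries at 37 °C stood above all others of their series.

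By group mean, matK was highest in W22 at V4 and 37 °C, at 14.5 ± 0.978 FPKM (SD, n = 3), followed by bzip60-2 at V4 and 37 °C at 13.3 ± 0.281 and W22 at V5 and 37 °C at 11.7 ± 2.17. Then came bzip60-2 at V4 and 35 °C at 9.88 ± 0.482, W22 at V4 and 35 °C at 8.93 ± 0.796, and bzip60-2 at V5 and 37 °C at 8.42 ± 0.215. Libraries of neighbours in this upper block overlapped, and a gap without overlap set the block apart from the next one. A second block held W22 at V4 and 33 °C at 6.54 ± 1.07 and bzip60-2 at V4 and 33 °C at 6.25 ± 0.642. W22 at V5 and 35 °C, at 5.58 ± 0.252, and W22 at V4 and 31 °C, at 4.80 ± 0.388, each stood apart from both neighbours in this order. W22 at V5 and 35 °C, with libraries of 5.31 to 5.81, still overlapped W22 at V4 and 33 °C, whose lowest library had 5.31. The lowest block overlapped from neighbour to neighbour: W22 at V5 and 31 °C at 3.32 ± 0.405, bzip60-2 at V4 and 31 °C at 3.20 ± 0.459, bzip60-2 at V5 and 35 °C at 3.08 ± 0.624, W22 at V5 and 33 °C at 2.32 ± 0.175, bzip60-2 at V5 and 31 °C at 1.92 ± 0.373, and bzip60-2 at V5 and 33 °C at 1.72 ± 0.280. Of the 15 pairs of neighbours in this order, 11 overlapped and 4 did not.

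Between 37 and 31 °C, matK differed by 1.70 on the scale of log2(FPKM + 1) in bzip60-2 at V5, 1.55 in W22 at V5, 1.77 in bzip60-2 at V4 and 1.42 in W22 at V4, each with an SE of 0.116 from the spread of all 16 groups. The ratios of group means were 4.39, 3.52, 4.16 and 3.03 in the same order. In bzip60-2 at V4 this comparison also sets libraries with high Zm00001d033132 at 37 °C against libraries with low values at 31 °C. In all 4 series the 3 libraries at 37 °C lay above the 3 at 31 °C, as they did for 7.84% of all genes tested. Between 125 and 153 of the 22794 genes had a larger log2 difference than matK in a series, which puts matK above 99.3 to 99.4% of them. The bzip60-2 difference exceeded the W22 one by 0.15 at V5 and by 0.35 at V4, each with an SE of 0.164, and the V5 difference departed from the V4 one by -0.07 in bzip60-2 and 0.12 in W22.

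The path to 37 °C was not the same at both stages. For 33 against 31 °C, the log2 difference of matK was -0.10 in bzip60-2 at V5, where the libraries overlapped, and -0.38 in W22 at V5, where all 3 libraries at 33 °C were below those at 31 °C. At V4 it was 0.79 in bzip60-2 and 0.37 in W22, with all libraries at 33 °C above those at 31 °C. In bzip60-2 at V4 the libraries at 31 °C have low Zm00001d033132 and those at 33 °C high, so temperature and library set coincide in this step. With a set term, which rests on W22 V4 replicate 3 at 37 °C and cannot separate them, the step was 0.80 (SE 0.212). For 35 against 33 °C it was 0.58 in bzip60-2 and 0.99 in W22 at V5, and 0.59 in bzip60-2 and 0.40 in W22 at V4. For 37 against 35 °C it was 1.22 in bzip60-2 and 0.94 in W22 at V5, and 0.40 in bzip60-2 and 0.65 in W22 at V4. The libraries of these last 8 pairs did not overlap, and at V5 the step to 37 °C held most of the difference in bzip60-2. Over the 12 steps, the warmer libraries lay wholly above the cooler ones in 10 and wholly below in 1, and 1 step overlapped. With size factors, the step between 33 and 35 °C in W22 at V4 overlapped as well. Over all genes tested and the same steps, 24.9% of gene and step combinations lay wholly above and 24.6% wholly below.

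In bzip60-2 leaves at V5, matK was lower than in W22 leaves at every temperature, and no library of the mutant reached the lowest W22 library of its temperature. The mutant held 0.577 times the W22 mean at 31 °C, 0.744 times at 33 °C, 0.552 times at 35 °C and 0.720 times at 37 °C. On the log2 scale these differences were -0.57, -0.29, -0.70 and -0.42, with a mean of -0.49 (SE 0.0579). At V4 the difference was -0.47 at 31 °C, where the libraries did not overlap, and -0.05, 0.13 and -0.12 at 33, 35 and 37 °C, where they did; the mean was -0.13 (SE 0.0579). Of the 8 comparisons between genotypes, the mutant libraries were wholly below in 5 and wholly above in 0. For all genes tested the mutant libraries were wholly below in 11.8% of gene and comparison pairs. At V4, the libraries of bzip60-2 at 31 °C and of W22 mostly share the set with low Zm00001d033132. The other bzip60-2 libraries at V4 do not. With a term for the set, the mean difference of matK at V4 was -0.12. That term rests on W22 V4 replicate 3 at 37 °C and cannot separate genotype and set. Divided by size factors, matK had a mean difference of -0.35 at V4 and -0.67 at V5. On that scale the V4 differences were -0.71, -0.25, -0.029 and -0.42 at 31, 33, 35 and 37 °C, so the sign at 35 °C turned. The libraries at V4 and 37 °C then no longer overlapped, at 12.4 to 12.8 in bzip60-2 and 16.4 to 17.9 in W22, and the mutant libraries were wholly below in 6 of the 8 comparisons. The share of all genes lying wholly below was not computed on that scale. Genes called lower in the mutant made up 28.2% at V5 and 31.1% at V4 with size factors. As deposited they made up 11.5% and 12.2% (limma, adjusted p under 0.05).

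V5 leaves had less matK than V4 leaves. In bzip60-2, the log2 difference between V5 and V4 was -0.53, -1.41, -1.43 and -0.60 at 31, 33, 35 and 37 °C, with a mean of -0.99 (SE 0.0579). In W22 it was -0.43, -1.18, -0.59 and -0.30 at these temperatures, with a mean of -0.62 (SE 0.0579). All W22 V5 libraries lie in the set with high Zm00001d033132, and all W22 V4 libraries except replicate 3 at 37 °C lie in the other. Stage and library set therefore nearly coincide in W22. With a term for the set the W22 values were -0.42, -1.17, -0.58 and -0.30. Their SE was 0.212 at 31, 33 and 35 °C and 0.166 at 37 °C, instead of 0.116. The set term rests on W22 V4 replicate 3 at 37 °C, so it cannot separate stage and set. The V5 libraries were wholly below the V4 libraries in 7 of the 8 comparisons and overlapped with them in W22 at 37 °C, while over all genes tested 14.5% of such comparisons lay wholly below. With size factors they were wholly below in 8 of 8, and the mean differences were -1.24 in bzip60-2 and -0.92 in W22. The share of all genes lying wholly below was not computed on that scale. Genes called lower at V5 made up 32.6% in bzip60-2 and 34.8% in W22 with size factors. As deposited they made up 15.2% and 15.8% (limma, adjusted p under 0.05). The differences were widest at 33 °C in W22, and at 33 and 35 °C in bzip60-2. Among the 29 plastid genes past the filter, matK had the lowest value of this difference in both genotypes. In W22 the margin was within the errors, since atpF, which ranked 25th, had -0.58 (SE 0.0406). In bzip60-2 atpF ranked 28th at -0.80.

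**Figure D2:**
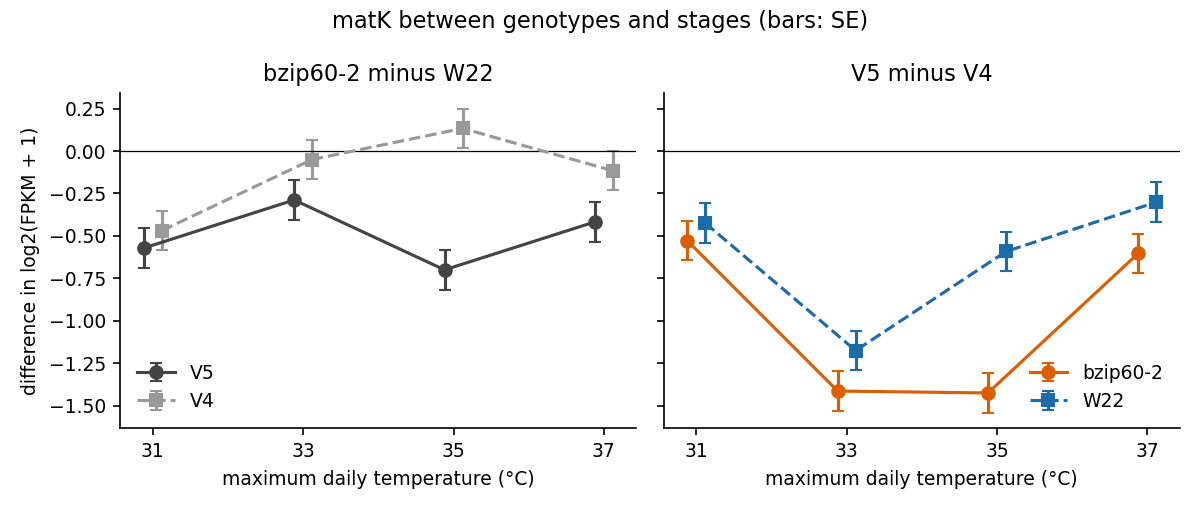
Differences of matK in log2(FPKM + 1) (vertical axes) by maximum daily temperature (°C, horizontal axes), bzip60-2 minus W22 on the left and V5 minus V4 on the right, with bars for the SE of the 16-group fit. The bzip60-2 values at V5 run between -0.70 and -0.29, all under 0, and the V5 minus V4 values reach -1.43 in bzip60-2 at 35 °C.

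Set against the other plastid transcripts of the same library, matK was also higher at 37 °C. Its share of the summed FPKM of 47 named plastid genes was 0.484% ± 0.00957 at 37 °C and 0.161% ± 0.0356 at 31 °C in bzip60-2 at V5, and 0.627% ± 0.0794 and 0.239% ± 0.0386 in W22 at V5 (SD, n = 3 each). At V4 it was 0.672% ± 0.0396 at 37 °C and 0.239% ± 0.0232 at 31 °C in bzip60-2, and 0.726% ± 0.0880 and 0.304% ± 0.0187 in W22. No library at 37 °C had a share as low as any at 31 °C in its series. The log2 ratio of the shares was 1.59 in bzip60-2 and 1.39 in W22 at V5, and 1.49 in bzip60-2 and 1.26 in W22 at V4. The sum of the plastid genes took between 0.114% and 0.219% of the FPKM of a library as a group mean, with ndhK at 401 FPKM, ndhC at 359 FPKM and rps3 at 306 FPKM as its largest parts. Taken as a share of the sum without these 3 genes, the log2 ratio was 1.85 in bzip60-2 and 1.64 in W22 at V5, and 1.65 in bzip60-2 and 1.48 in W22 at V4. By mean level over all libraries, matK ranked 18th of the 47 genes at 6.59 FPKM. In W22 at V5, where the levels of matK were wholly lower at 33 than at 31 °C, the shares overlapped. Over the 12 steps, the shares lay wholly above in 9, wholly below in 0 and overlapped in 3. How often the shares of other plastid genes separate in this way was not computed.

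**Figure D3:**
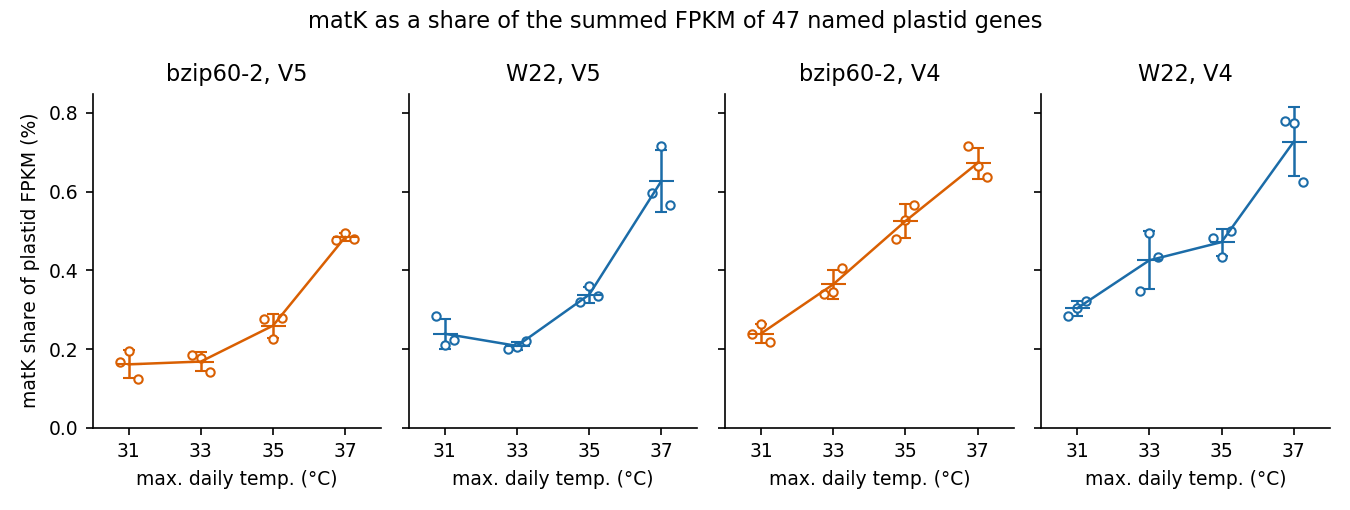
matK as a percentage of the summed FPKM of 47 named plastid genes (vertical axis) by maximum daily temperature (°C, horizontal axis) for each genotype and stage. Circles are libraries and bars the mean ± SD of 3. The share is highest at 37 °C in each series, with means of 0.484% to 0.726% there and 0.161% to 0.304% at 31 °C.

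Of the genes whose introns associate with matK in tobacco, atpF and rpl2 were in the table and past the filter, and their transcripts behaved unlike each other. atpF encodes a membrane subunit of the plastid ATP synthase. In bzip60-2 leaves at V5, its libraries had 109, 109.8 and 106 FPKM at 37 °C and 50.8, 45.9 and 44.8 FPKM at 31 °C. In W22 leaves at V5, they had 135, 137 and 134 FPKM at 37 °C and 66.3, 77.2 and 66.6 FPKM at 31 °C. In bzip60-2 leaves at V4, atpF had 126, 129 and 125 FPKM at 37 °C and 93.2, 87.4 and 77.6 FPKM at 31 °C, and in W22 leaves at V4, 172, 155 and 187 FPKM at 37 °C and 90.3, 95.02 and 103 FPKM at 31 °C. The groups did not overlap in any series. atpF rose by 1.18 in bzip60-2 and 0.94 in W22 at V5, and by 0.55 in bzip60-2 and 0.82 in W22 at V4 (log2, SE 0.0813), with adjusted p = 1.93e-15, 1.92e-12, 3.23e-07 and 6.29e-11 (limma, Benjamini-Hochberg over all genes tested). With a term for the library set, the rise in bzip60-2 at V4 was 0.35 with adjusted p = 0.0558.

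rpl2 encodes a protein of the large subunit of the plastid ribosome. In bzip60-2 leaves at V5, its libraries had 13.2, 12.0 and 12.9 FPKM at 37 °C and 12.7, 11.5 and 10.4 FPKM at 31 °C, and in W22 leaves at V5, 13.4, 15.4 and 13.2 FPKM at 37 °C and 16.6, 13.9 and 16.9 FPKM at 31 °C. These groups overlapped. In bzip60-2 leaves at V4, rpl2 had 11.6, 12.1 and 11.3 FPKM at 37 °C and 14.4, 15.8 and 17.6 FPKM at 31 °C. In W22 leaves at V4, it had 10.9, 11.4 and 10.6 FPKM at 37 °C and 20.7, 24.02 and 17.1 FPKM at 31 °C. These groups did not overlap. rpl2 differed by 0.13 in bzip60-2 and -0.16 in W22 at V5, with adjusted p = 0.330 and 0.252, and fell by 0.42 in bzip60-2 and 0.84 in W22 at V4 (SE 0.110, adjusted p = 0.00149 and 4.07e-08, limma). The fall in bzip60-2 at V4 had an adjusted p of 0.187 with a term for the library set.

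Between genotypes, atpF fell in the mutant by 0.44 at V5 (SE 0.0406, adjusted p = 4.43e-12) and by 0.21 at V4 (adjusted p = 1.48e-05, limma). rpl2 fell by 0.13 at V5 (SE 0.0551, adjusted p = 0.0289), and it differed by -0.05 at V4 (adjusted p = 0.432, limma), which with size factors became -0.29 (adjusted p = 2.41e-05). The V5 call of rpl2 was lost, with adjusted p between 0.0502 and 0.0734, on leaving out bzip60-2 replicate 3 at 31 °C or replicate 2 at 35 or 37 °C, or W22 replicate 1 at 31, 33 or 35 °C, replicate 3 at 31 or 35 °C or replicate 2 at 37 °C. Between V5 and V4, atpF fell by 0.80 in bzip60-2 and 0.58 in W22, and rpl2 by 0.26 and 0.17 (adjusted p of 0.00487 or less, limma). The W22 value of rpl2 had an adjusted p of 0.579 with a term for the library set.

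Another 7 plastid genes with group II introns were in the table, and ycf3, rpl16, ndhA and ndhB were past the filter. ycf3, which encodes an assembly factor of photosystem I, fell in all 4 series while matK was higher. Its libraries had 42.7, 33.1 and 40.7 FPKM at 37 °C and 113, 117 and 117 FPKM at 31 °C in bzip60-2 at V5, and 33.9, 28.4 and 29.3 FPKM at 37 °C and 81.5, 86.0 and 82.2 FPKM at 31 °C in W22 at V5. At V4 they had 32.5, 29.9 and 35.4 FPKM at 37 °C and 80.2, 71.3 and 74.3 FPKM at 31 °C in bzip60-2, and 18.4, 17.95 and 26.0 FPKM at 37 °C and 49.6, 55.2 and 58.5 FPKM at 31 °C in W22. No library at 37 °C reached the lowest at 31 °C in its series. The falls were 1.56 in bzip60-2 and 1.42 in W22 at V5, and 1.18 in bzip60-2 and 1.37 in W22 at V4 (SE 0.0982, adjusted p of 4.95e-13 or less, limma). ycf3 also ran against matK between genotypes, where it rose in the mutant by 0.40 at V5 and 0.54 at V4, and between stages, where it rose at V5 by 0.47 in bzip60-2 and 0.61 in W22. With a term for the library set, the V4 difference between genotypes was 0.21 (adjusted p = 0.0689, limma) and the W22 difference between stages was 0.16 (adjusted p = 0.272, limma). With size factors ycf3 rose by 0.15 at V5 and 0.29 at V4 between genotypes, and by 0.13 in bzip60-2 and 0.27 in W22 between stages (adjusted p of 0.0167 or less, limma).

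rpl16, another gene of the large ribosomal subunit, varied widely between libraries. In W22 at V4 it was listed at 0.00, 4.11 and 26.9 FPKM at 37 °C and had 30.4, 31.5 and 22.9 FPKM at 31 °C, a log2 difference of -2.47, and the highest library at 37 °C is the replicate that stood apart in Zm00001d033132. Without that replicate the difference was -3.68 and without replicate 1 at 37 °C it was -1.28, and in a fit of the compared groups alone its adjusted p was 0.144. It rose by 1.70 in bzip60-2 at V5 and 1.87 in bzip60-2 at V4, and differed by 0.34 in W22 at V5 (adjusted p = 0.656, limma), and the V4 mutant value became -1.76 with a term for the library set and had an adjusted p of 0.0520 with a pseudocount of 0.1. The V5 mutant call had an adjusted p of 0.0604 without replicate 2 at 31 °C and of 0.0785 with a pseudocount of 0.1. ndhA and ndhB encode subunits of the NADH dehydrogenase-like complex. ndhA rose by 0.33 in bzip60-2 at V5 (adjusted p = 0.0490), 0.49 in bzip60-2 at V4 and 0.59 in W22 at V4 and differed by 0.10 in W22 at V5 (adjusted p = 0.608, limma); with a term for the library set the bzip60-2 value at V4 was -0.27. In a fit of the compared groups alone the W22 value at V4 had an adjusted p of 0.108. The ndhA call in bzip60-2 at V5 was lost without replicate 2 or 3 at 31 or 37 °C, with adjusted p between 0.0728 and 0.207, and also with no filter (adjusted p = 0.0685) and in a fit of the compared groups alone (adjusted p = 0.0607). ndhB fell by 0.38 in W22 at V4, with adjusted p = 0.0673 without replicate 2 at 31 °C and 0.0652 without replicate 2 at 37 °C (limma), and did not pass the test in the other series, though with size factors its value in bzip60-2 at V5 was 0.31 (adjusted p = 0.0436).

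Counted together, plastid genes went both ways between 37 and 31 °C. Of the 46 named plastid genes other than matK, 28 passed the filter. At V5, 12 of them rose and 5 fell in bzip60-2, where 20.8% of all genes tested rose and 32.8% fell, and 9 rose and 4 fell in W22, where 21.9% rose and 22.3% fell. At V4, 12 rose and 7 fell in bzip60-2, against 33.5% and 21.7% of all genes, and 11 rose and 9 fell in W22, against 26.6% and 19.7%. The median log2 change of the 28 genes was 0.25 in bzip60-2 and 0.09 in W22 at V5, and 0.29 in bzip60-2 and 0.12 in W22 at V4. With a term for the library set, 6 rather than 12 rose in bzip60-2 at V4. The split over all genes followed the scaling: with size factors 25.8% rose and 25.1% fell in bzip60-2 at V5 and 25.9% rose and 27.7% fell in bzip60-2 at V4, while 13 plastid genes rose and 4 fell at V5 and 11 rose and 8 fell at V4.

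Genes with introns and genes without them each held members that rose and members that fell. Over all genes tested, 20.8% to 33.5% rose and 19.7% to 32.8% fell in these series, and some of the counts here lie near those shares. Of the 6 tested genes with introns, 3 rose and 1 fell in bzip60-2 at V5, 1 rose and 1 fell in W22 at V5, 3 rose and 2 fell in bzip60-2 at V4, and 2 rose and 4 fell in W22 at V4. Of the 22 without introns, 9 rose and 4 fell, 8 rose and 3 fell, 9 rose and 5 fell, and 9 rose and 5 fell in the same series. Of the 10 genes for plastid ribosomal proteins and RNA polymerase, 5 rose and 0 fell in bzip60-2 and 4 rose and 0 fell in W22 at V5, and 6 rose and 1 fell in bzip60-2 and 3 rose and 3 fell in W22 at V4. At an unadjusted p under 0.05 (limma), 0 of them fell in bzip60-2 and 1 in W22 at V5. Among them rps3, a protein of the small ribosomal subunit, rose in every series, by 1.27 in bzip60-2 and 0.91 in W22 at V5 and by 1.15 in bzip60-2 and 0.75 in W22 at V4. Of the 16 photosynthesis genes, 7 rose and 3 fell in bzip60-2 and 5 rose and 3 fell in W22 at V5, and 6 rose and 4 fell in bzip60-2 and 8 rose and 5 fell in W22 at V4. atpB, the catalytic subunit of the ATP synthase, rose by 1.10 in bzip60-2 and 0.81 in W22 at V5 and by 0.67 in bzip60-2 and 0.70 in W22 at V4, and psaB, a core protein of photosystem I, fell by 0.54, 0.44, 0.61 and 0.53 in that order. matK held the highest value of the 29 plastid genes in bzip60-2 at V5, in W22 at V5 and in W22 at V4. In bzip60-2 at V4 it held the 3rd. There rpl16 stood above it at 1.87, a value that became -1.76 with a term for the library set.

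**Figure D4:**
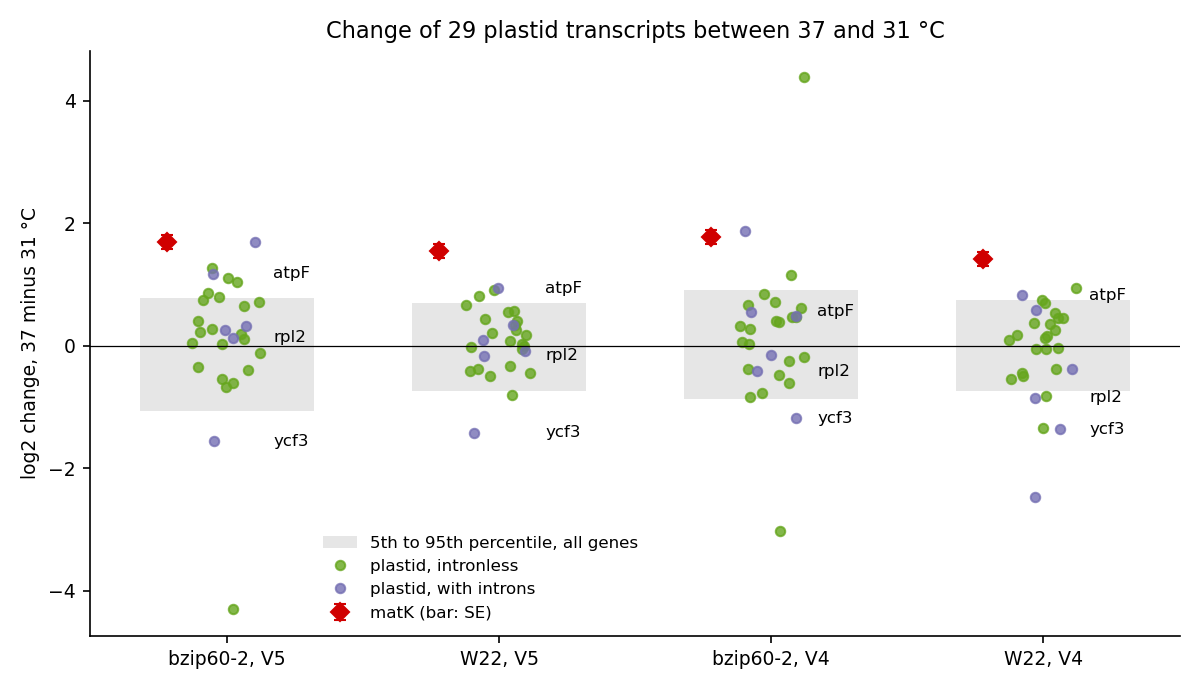
Difference in log2(FPKM + 1) between 37 and 31 °C (vertical axis) for 29 plastid genes in each genotype and stage (horizontal axis, positions spread for legibility). Red diamonds are matK with its SE, green points plastid genes without introns, purple points those with introns, and grey boxes span the 5th to 95th percentile of all 22794 genes. matK lies above the grey box in every series at 1.42 to 1.77, atpF lies above 0 throughout, and ycf3 lies below at -1.56 to -1.18.

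Between genotypes and stages, more plastid genes fell than rose. In the whole table as deposited more genes rose than fell, a split that depended on the scaling. In the mutant at V5, 2 of the 28 rose and 12 fell, where 62.4% of all genes rose and 11.5% fell. In the mutant at V4, 5 rose and 11 fell, against 58.4% and 12.2% of all genes, and 0 rather than 5 rose with a term for the library set (1 at an unadjusted p under 0.05, limma). At V5 relative to V4, 2 rose and 19 fell in bzip60-2, against 67.0% and 15.2% of all genes, and 3 rose and 17 fell in W22, against 65.7% and 15.8%, and 0 rather than 3 rose in W22 with a term for the library set (0 at an unadjusted p under 0.05, limma). With size factors, 2 plastid genes rose and 22 fell in the mutant at V5, where 5407 of 22553 genes rose and 6356 (28.2%) fell, and 4 rose and 21 fell at V4, against 28.5% and 31.1%. Between stages, 2 then rose and 24 fell in bzip60-2, against 36.3% and 32.6%, and 2 rose and 23 fell in W22, against 38.4% and 34.8%. The medians of the 28 genes were -0.16 at V5 and -0.11 at V4 between genotypes, and -0.32 in bzip60-2 and -0.22 in W22 between stages. matK ranked 28th of 29 between genotypes at V5, ahead of rps3 at -0.51, and 18th at V4.

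Over the 16 group means of log2(FPKM + 1), the named organelle genes most like matK among 49 compared were atpF, with a Pearson r of 0.953, ndhK at 0.944, atpB at 0.943, rps3 at 0.942 and rps4 at 0.934. The least alike were clpP, a protease subunit, at -0.688 and ycf3 at -0.939, while rpl2 had an r of -0.00666. These 16 points share library preparation and scaling, and the values are descriptions over group means. Of the 22793 other genes tested, 5 had a higher r than atpF. Among 15489 nuclear identifiers with at least 5 FPKM in their highest group, the most alike were Zm00001d043524 at 0.959 and Zm00001d034516 at 0.953, neither with a name in the table of gene names used. Zm00001d043524 had 18.7 ± 0.810 FPKM at 37 °C and 4.34 ± 0.630 at 31 °C in bzip60-2 at V5, and 24.4 ± 0.381 FPKM at 37 °C and 9.44 ± 0.445 at 31 °C in W22 at V4 (SD, n = 3 each). With size factors the order changed. The most alike organelle gene was then rps3 at 0.960, atpF had 0.954, and psbC at 0.945 took the place of rps4 among the 5. ycf3 had -0.785 and clpP -0.689. Of 22552 other genes, 8 had a higher r than rps3.

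**Figure D5:**
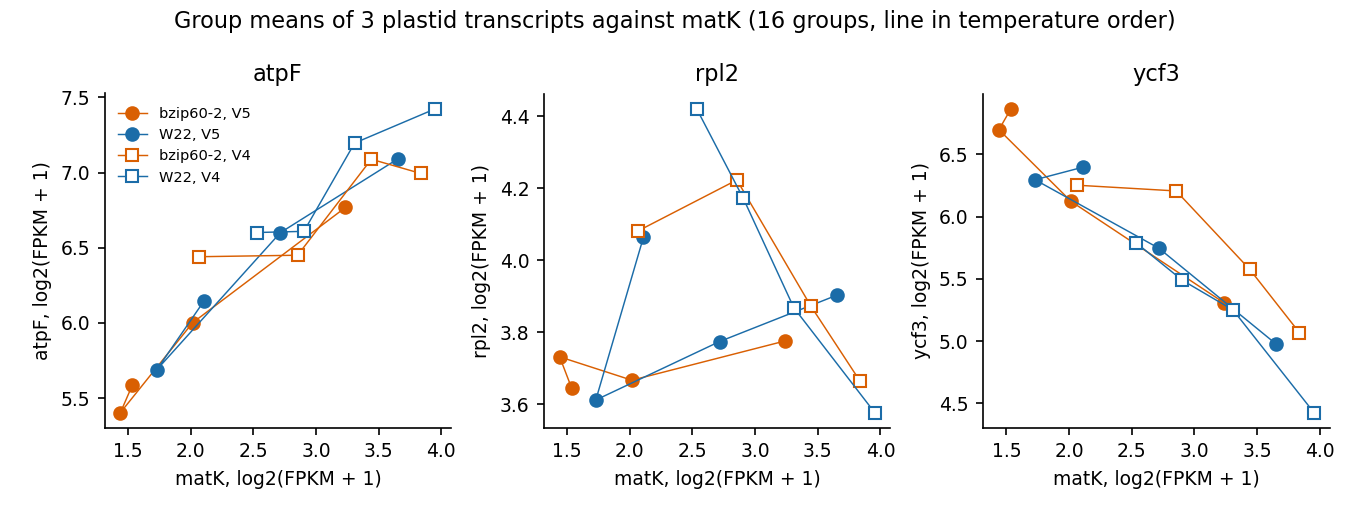
Group means of atpF, rpl2 and ycf3 (vertical axes) against matK (horizontal axes), all in log2(FPKM + 1), for 16 groups, with lines joining the 4 temperatures of a series. atpF climbs with matK (Pearson r 0.953), rpl2 shows no common slope (-0.00666) and ycf3 descends (-0.939).

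The mitochondrial counterpart of matK, the intron maturase matR (mat-r in the reference table), was too low to pass the filter. Its libraries lay between 0.07 and 0.86 FPKM and its group means between 0.12 and 0.687 FPKM. At V5 it averaged 0.540 ± 0.114 FPKM at 37 °C and 0.400 ± 0.104 at 31 °C in bzip60-2, and 0.547 ± 0.186 and 0.290 ± 0.0854 in W22. At V4 it averaged 0.517 ± 0.100 at 37 °C and 0.217 ± 0.0929 at 31 °C in bzip60-2, and 0.290 ± 0.0265 and 0.127 ± 0.0808 in W22 (SD, n = 3 each). Of 5 mitochondrial genes with introns in the table, cox2 and nad4 passed the filter. cox2, a subunit of cytochrome c oxidase, rose by 0.61 in bzip60-2 and 1.36 in W22 at V5, and by 1.49 in bzip60-2 and 1.28 in W22 at V4 (SE 0.156, adjusted p of 0.00116 or less, limma). nad4, a subunit of respiratory complex I, rose by 0.72 in W22 at V5 and by 0.53 in bzip60-2 at V4, and differed by -0.18 in bzip60-2 at V5 and 0.17 in W22 at V4 (adjusted p = 0.306 and 0.355, limma); with a term for the library set the bzip60-2 value at V4 was 0.49 (adjusted p = 0.155). Unlike matK, both mitochondrial genes were higher at V5 than at V4, cox2 by 1.01 in bzip60-2 and 0.92 in W22 and nad4 by 1.18 and 0.91. As deposited, 67.0% of all genes tested were called higher at V5 in bzip60-2 and 65.7% in W22. With size factors these shares were 36.3% and 38.4%, and the differences were 0.75 and 0.70 for cox2 and 0.95 and 0.78 for nad4.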

How the data were processed

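Polyadenylated RNA of 48 maize leaf libraries was measured. The authors deposited a table of FPKM values per gene with 2 decimals; Bowtie2 2.2.5, RSEM 1.2.12 and HISAT2 2.0.4 appear in the submitters' processing notes, without roles, and a genome build or strand setting is not given in the sources used here. Libraries were mapped to groups through their labels. Genes with at least 1 FPKM in at least 3 libraries (22794) entered a linear model of 16 group means on log2(FPKM + 1) in limma 3.58.1 (R 4.3.3, mean-variance trend), two-sided, with Benjamini-Hochberg adjustment across all genes tested and a threshold of 0.05; fold changes on this scale understate those of low genes. The method was checked on simulated data. Plastid rows with identical values counted once. Other tools were Python 3.11.15, pandas 2.3.3 and matplotlib 3.10.9. All 211 organelle locus tags matched a RefSeq table of assembly Zm-B73-REFERENCE-NAM-5.0, used for names and neighbours only, and 0 of 30432 nuclear identifiers did. Copies of plastid genes elsewhere in the genome were not looked for; matK shared its values with no other row. matK, the gene lists and the tests were chosen with earlier results of these data known. Named were matK, atpF, rpl2 and matR in full, at most 4 genes with the largest change per other list, and by correlation with matK 5 organelle genes of highest, 2 of lowest r and 2 nuclear genes. Genes outside this rule (atpB, psaB and rps3 in every series, and Zm00001d033132) were chosen after their values were seen. Alternatives were a pseudocount of 0.1, median-ratio size factors on FPKM, no filter, a term for the library set, fits of the compared groups alone, a replicate block, other denominators of the share, and leaving out each library. The single values of 1 of the plastid genes are not reported here, and it remains in the counts.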

Additional observations from a re-analysis of the deposited data

Results flagged for a closer look

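Groups differed in direction or size under the same contrast in 7 results. For 33 against 31 °C, matK had a log2 difference of 0.79 in bzip60-2 at V4 and 0.37 in W22 at V4, where all 3 libraries at 33 °C were above those at 31 °C, and of -0.38 in W22 at V5, where all 3 were below. That difference between stages was not tested, since matK was chosen with these values known. After division by size factors the means of matK in W22 at V5 were 1.90 ± 0.126 at 33 °C and 3.48 ± 0.446 at 31 °C, and in W22 at V4 8.62 ± 1.35 and 5.96 ± 0.457 (SD, n = 3 each), which keeps both directions.

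The change of atpF between 37 and 31 °C was larger by 0.63 at V5 than at V4 in bzip60-2 (log2, SE 0.115, adjusted p = 2.73e-05, limma interaction). In W22 the same difference was 0.12 (adjusted p = 0.507). The change of rpl2 differed by 0.55 between V5 and V4 in bzip60-2 (SE 0.156, adjusted p = 0.00427) and by 0.68 in W22 (adjusted p = 0.000948). At V4 the change of rpl2 was also less negative in bzip60-2 than in W22, by 0.43 (adjusted p = 0.0372, limma). The bzip60-2 values at V4 all compare libraries of both sets defined by Zm00001d033132, and the part of that difference in these results was not tested.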

How the results depend on the processing

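Of 40 values of matK for 37 against 31 °C, for its share, and for genotype and stage means under other settings, 26 moved by less than the spread between libraries, 14 moved by more and 0 reversed. Of 128 values at single temperatures or steps, 95 moved by less, 32 by more and 1 reversed, bzip60-2 minus W22 at V4 and 35 °C, with -0.029 under size factors. Some values in both counts could not move. Every group holds the same replicate numbers, so a replicate block leaves differences of group means unchanged. The set term cannot move a difference between groups that lie wholly in the same set. For 37 against 31 °C and its share, and for the means, all 144 values with 1 library left out stayed within the spread between libraries. For the log2 differences this outcome was fixed beforehand. Leaving out 1 of 3 libraries cannot move a difference of group means by more than that spread. With a pseudocount of 0.1 the 37 against 31 °C difference was 2.10 in bzip60-2 and 1.78 in W22 at V5, and 2.03 in bzip60-2 and 1.58 in W22 at V4, and the V5 minus V4 difference in bzip60-2 was -1.21. With size factors the bzip60-2 minus W22 difference was -0.67 at V5 and -0.35 at V4, and the V5 minus V4 difference -1.24 in bzip60-2 and -0.92 in W22. The log2 ratio of shares without the 3 most abundant genes was 1.85, 1.64, 1.65 and 1.48, and among intronless photosynthesis genes 1.72, 1.48, 1.66 and 1.32, in the order bzip60-2 V5, W22 V5, bzip60-2 V4, W22 V4. With 1 library left out, the 37 against 31 °C difference of matK lay between 1.60 and 1.78, 1.41 and 1.63, 1.68 and 1.83, and 1.37 and 1.47 in that order.

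Counts of plastid genes that moved by over 1.5 times were those that rose with a term for the library set, 6 rather than 12 for 37 against 31 °C in bzip60-2 at V4, 0 rather than 5 in bzip60-2 against W22 at V4 and 0 rather than 3 for V5 against V4 in W22 (1 and 0 of these at an unadjusted p under 0.05, limma), and those that fell with size factors in bzip60-2 against W22, 22 rather than 12 at V5 and 21 rather than 11 at V4. Values of single genes named here reversed with the set term: for 37 against 31 °C in bzip60-2 at V4, rpl16 -1.76, rpl22 -0.0068, ndhE 0.13 and ndhA -0.27; for bzip60-2 against W22 at V4, rps3 -0.29 and rpl16 -1.35; for V5 against V4 in W22, rpl16 -2.85 and ndhE 0.20. With size factors rps3 reversed to -0.15 in bzip60-2 against W22 at V4. Only W22 at V4 and 37 °C holds libraries of both sets, so the set term rests on its replicate 3; the cause of these changes was not tested. Same-numbered libraries of different groups had correlations of deviations between -0.0941 and 0.0960, with a mean of -0.00195. Differently numbered ones ran between -0.103 and 0.124. Pairing within single stages or temperatures was not tested separately. A replicate block cannot change the matK differences, only their errors. With it, ndhA in bzip60-2 at V5 had an adjusted p of 0.0542 (limma). With the reads behind each FPKM unknown, no floor can be given for genes near 0.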
